A study of Mus musculus with 8 samples.

Results

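The 8 genes described here encode the machinery of MHC class II antigen presentation: the class II chains H2-Aa, H2-Ab1 and H2-Eb1, the invariant chain Cd74, the H2-DM peptide editor (H2-DMa, H2-DMb1, H2-DMb2) and the transactivator Ciita. They were listed by name for their role in this pathway, and all 8 were found by gene identifier among the 52636 genes of the count table. The libraries were poly(A) RNA-seq of S0 cells, sorted from mouse fetal liver at E12.5 as negative for a panel of lineage antibodies (CD3e, CD4, CD8a, B220, CD127, CD11b, Ly6G/Ly6C) and for both CD71 and Ter119. Vps13a/Vps13c double knockout (DKO) cells were compared with wild-type (WT) cells, with 4 libraries in each group. Both genes encode long proteins that carry lipids between membranes where organelles touch. The DKO embryos carried a Vps13a allele from which exon 6 had been removed in the whole body by β-actin-Cre, together with Vps13c-/-, and came from intercrosses of Vps13a+/-;Vps13c-/- mice on a C57BL/6J background. The WT embryos were therefore not their littermates, and genotype and litter cannot be told apart. The labels do not say how many embryos each library holds, so that p-values measure the spread between these libraries.

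Class II molecules are pairs of an α and a β chain that carry peptides from endosomes to the surface of dendritic cells, B cells and macrophages. The invariant chain, Cd74, fills the groove during assembly, cathepsins such as CTSS trim it, and H2-DM exchanges its last fragment for a peptide. Transcription of the class II chains, Cd74 and H2-DM depends on CIITA, which is recruited by the RFX, CREB and NF-Y complexes bound to the X and Y boxes of their promoters and which interferon-γ induces in part through IRF1. Interferons of either type also raise the MHC class I genes. Erythroid precursors and blood progenitors are not known as professional antigen-presenting cells, and the C57BL/6 strain lacks a working H2-Ea chain gene. H2-Ea-ps was at 0 in all 8 libraries.

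Promoters of the members were searched for the X and Y boxes, and those of the 4 members with a match are shown. Windows of 300 bases around annotated starts, from RefSeq on GRCm38.p6 (the mm10 build of the files), were used for 5 of the 8 members. H2-Ab1 and Ciita had no window in this set, and Cd74 was left out of the search, so that nothing is shown for these members. The Y box was searched as TGATTGG and the X box core as AAC, any 2 bases and ATGATG, both on either strand, in letters that were chosen after the windows had been read, and the motifs did not overlap one another. The Y box was present in the windows of H2-Aa, H2-Eb1, H2-DMb1 and H2-DMb2, against 7.82% of 32851 windows of all genes. The X box core was present in those of H2-Eb1, H2-DMb1 and H2-DMb2, against 0.137% of all windows. Because the letters were chosen with the members' windows in view, these shares are a description and no test. The stretches from 140 to 31 bases before the start are given 5′ to 3′ on the strand of the gene, with the motifs in capitals, from chr17:34287854-34287963 (minus strand) for H2-Aa, and from chr17:34305727-34305836, chr17:34153051-34153160 and chr17:34145109-34145218 (plus strand) for H2-Eb1, H2-DMb1 and H2-DMb2.
H2-Aa: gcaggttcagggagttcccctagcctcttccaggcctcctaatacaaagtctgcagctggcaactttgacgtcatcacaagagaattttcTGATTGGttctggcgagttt
H2-Eb1: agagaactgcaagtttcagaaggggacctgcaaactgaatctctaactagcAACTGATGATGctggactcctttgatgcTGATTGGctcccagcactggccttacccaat
H2-DMb1: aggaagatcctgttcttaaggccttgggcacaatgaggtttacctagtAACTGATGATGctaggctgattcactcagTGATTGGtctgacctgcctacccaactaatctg
H2-DMb2: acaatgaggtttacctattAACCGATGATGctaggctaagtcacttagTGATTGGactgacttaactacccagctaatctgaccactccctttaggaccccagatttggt

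The X and Y boxes were 17 bases apart in H2-Eb1 and 18 bases apart in both H2-DMb genes. The H2-DMb1 and H2-DMb2 windows were 84.2% identical over 247 aligned bases. H2-DMa had 2 annotated windows and neither held the letters of either motif, which says only that these letters are not in those windows. The first (chr17:34122582-34122881) also covers the start of Brd2 on the other strand, at 34122634. Whether these cells use either annotated start of H2-DMa was not examined.

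Sequencing depth was 36981439 to 50886469 counts per library. Of the targeted genes, Vps13a fell in DKO libraries to 794.2 ± 194 normalized counts (SD, n = 4), from 1943 ± 129.5 in WT, whereas Vps13c read 583.1 ± 74.89 and 816.3 ± 278.8 (adjusted p = 0.182, edgeR's quasi-likelihood test). The Vps13c transcript was thus not lower in the libraries labelled DKO, and where its knockout allele lies relative to the counted exons was not examined, so that only Vps13a checks the labels. The erythroid factors Klf1 and Gata1, which were not used to sort the cells, were at 9622 to 17170 and 6649 to 10500 normalized counts in every library, and Afp, a hepatoblast gene, at 96780 to 350400. Ddx3y, on the Y chromosome, was at 2516 to 3354 normalized counts in DKO library 3 and the 4 WT libraries and at 9.404 to 40.98 in the other DKO libraries, so that sex and genotype were partly confounded. DKO library 1 stood apart, with the lowest summed levels of the macrophage, monocyte, B-lineage, endothelial and progenitor marker lists. The sums of the dendritic cell and lymphoid lists were instead highest there among the DKO libraries. Genes of high level weigh most in such sums. Not every marker followed the sum of its own list, since Mertk and Meis1, for example, were highest in DKO library 1 among the DKO libraries. Member results that change without DKO library 1 are given with the genes. Values of DKO library 3 alone against the WT libraries are given without a p-value, since a single library has no spread of its own.

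Of the 8 members, 7 had enough counts for the test. By edgeR's quasi-likelihood test, H2-DMa fell in DKO cells and H2-Ab1 rose, at an adjusted p of 0.0215 and 0.0464. At an adjusted p under 0.05, these 2 of 7 stood beside 21.6% of the 17378 genes tested, 10.7% higher and 10.8% lower. With the added requirement of a log2 fold change beyond 1, which is the call rule used throughout, H2-DMa was the 1 member called lower and no member was called higher, against 8.63% of all genes, 2.43% lower and 6.19% higher. The other 5 tested members did not pass. The 3 H2-DM genes were the members whose WT and DKO libraries did not overlap, all lower in DKO, against 28.1% of all genes tested in either direction and 14.6% lower. The median log2 fold change of the 7 tested members was 0.12, beside 0.03 for all genes tested, and it lay between members of opposite sign, 4 above 0 and 3 below.

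**Figure D1:**
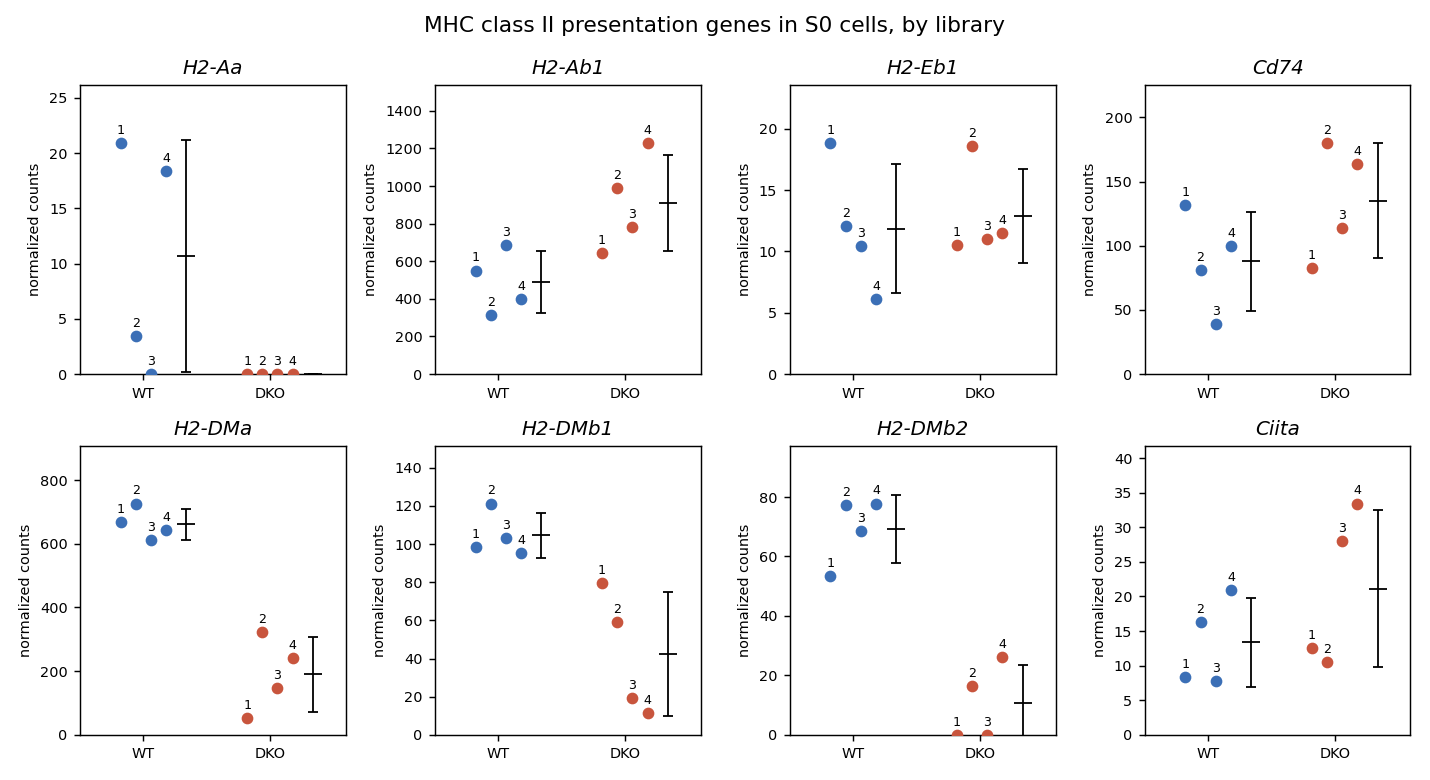
Normalized counts (y axis, linear, starting at 0) of the 8 members in each WT (blue) and DKO (red) library, numbered by replicate, with the mean ± SD of each group beside the points (n = 4; the bar of H2-DMb2 in DKO is cut at 0). The DKO points lie below all WT points for H2-DMa, H2-DMb1 and H2-DMb2, and the groups overlap for the other members except that H2-Aa is at 0 in all DKO libraries and in WT library 3.

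H2-DMa encodes the α chain of the peptide editor. Its level was 667.1, 726.4, 611.6 and 641.7 normalized counts in WT libraries 1 to 4 and 51.49, 322.0, 146.5 and 241.4 in the DKO libraries. The WT libraries lay close together, whereas the DKO libraries were spread over a wide range, with library 1 the lowest and library 2 the highest, and every DKO value was below every WT value. The means of 661.7 ± 48.73 and 190.3 ± 117.1 (SD, n = 4) differed 3.48-fold, and the log2 fold change was -1.80 with a standard error of 0.45. The exact two-sided permutation test over 70 arrangements of the libraries gave p = 0.0286, the smallest it can give. Without WT library 1, 2 or 4 the adjusted p of edgeR's test was 0.0605, 0.0601 or 0.0572. Without DKO library 1 the log2 fold change was -1.48 (adjusted p = 0.00559), and it was -2.19 with DKO library 3 alone. The exons of H2-DMa (chr17:34119541-34139101, plus strand) overlap those of Brd2, a chromatin reader on the other strand, by 360 bases or 10.4% of their length, and the strand setting of the counting was not stated. Brd2 read 10420 ± 667.5 normalized counts in WT and 9713 ± 419.8 in DKO (adjusted p = 0.364).

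H2-DMb1 and H2-DMb2 encode alternative β chains that pair with H2-DMa. H2-DMb1 (chr17:34153072-34160230, plus strand) was at 98.44, 121.3, 103.4 and 95.29 normalized counts in the WT libraries and at 79.85, 59.28, 19.53 and 11.49 in the DKO libraries. All DKO libraries were below all WT libraries, but in another order than for H2-DMa, since DKO library 1 was the highest of the 4 for H2-DMb1. The log2 fold change was -1.29 with a standard error of 0.57 and did not pass the test over all genes (adjusted p = 0.136), and the exact permutation test gave p = 0.0286. Without DKO library 1 it was -1.79 (adjusted p = 0.0471), and -2.43 against DKO library 3 alone.

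H2-DMb2 (chr17:34143307-34151555, plus strand) was at 53.41, 77.46, 68.63 and 77.81 normalized counts in the WT libraries. It was at 0 in DKO libraries 1 and 3, which a count of 3 would have placed at 3.15 and 3.66 normalized counts, and at 16.27 and 26.12 in DKO libraries 2 and 4. The groups did not overlap, and the 2 DKO libraries without a count were not the 2 with the least H2-DMb1. Its log2 fold change was -2.69 with a standard error of 1.09 (adjusted p = 0.109, and p = 0.0286 by the exact permutation test). Against DKO library 3 alone, which is at 0, a fitted fold has no meaning and none is given. The transcripts of H2-DMb1 and H2-DMb2 share 369 sequences of 50 bases, 22.7% and 21.2% of all such sequences in each, so that reads could be moved between these neighbouring copies in the counting. The values of each are uncertain for this reason.

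Among the class II chains, H2-Ab1, the β chain of the I-A molecule, had the highest level of the members in every DKO library. It was at 550.8, 315.0, 688.9 and 397.8 normalized counts in the WT libraries and at 646.2, 986.9, 781.4 and 1230 in the DKO libraries. Of the 4 DKO libraries, 3 were above every WT library, and DKO library 1 lay below WT library 3. The means were 488.1 ± 165.7 and 911.1 ± 254.5 (SD, n = 4), with a log2 fold change of 0.90 and a standard error of 0.28. The adjusted p of edgeR's test, 0.0464, was close to the threshold, and the exact permutation test gave p = 0.0571. The adjusted p was above 0.05 in 9 of 17 alternative analyses, among them those without WT library 1, 2 or 4 or DKO library 2, 3 or 4, with adjusted p-values from 0.0509 to 0.128. Without DKO library 1 the log2 fold change was 1.04 (adjusted p = 0.0252), which passes the call rule, and against DKO library 3 alone it was 0.66. The gene lies at chr17:34257689-34269419 on the plus strand, and no exon of another gene overlaps its exons.

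H2-Aa, the α chain that pairs with H2-Ab1, was nearly absent. It had 20, 4, 0 and 21 counts in the WT libraries and 0 in each DKO library, too few for the test over all genes (exact permutation p = 0.143). The paired chains of I-A were thus present at very unequal levels in WT as well as in DKO cells, with 190.1 and 2.81 normalized counts per kb of exon in WT libraries for H2-Ab1 and H2-Aa. H2-Aa lies at chr17:34282744-34287823 on the minus strand.

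H2-Eb1, the β chain of the I-E molecule, was at 6.12 to 18.85 normalized counts in WT and 10.51 to 18.6 in DKO libraries, and the groups overlapped throughout. Its log2 fold change was 0.12 with a standard error of 0.56 (adjusted p = 0.902, edgeR). With 7 to 18 counts a library, the sign was not fixed, and it turned without WT library 4 (-0.10), without DKO library 2 (-0.11) and with DKO library 3 alone (-0.13). H2-Eb1 lies at chr17:34305867-34316674 on the plus strand.

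Cd74, the invariant chain, is also a surface receptor for the cytokine MIF. It was at 131.9, 80.9, 39.09 and 99.66 normalized counts in WT libraries and at 83.01, 180.2, 113.5 and 164.0 in DKO libraries, of which 2 were above every WT library. The log2 fold change was 0.62 with a standard error of 0.42 and did not pass (adjusted p = 0.326, with p = 0.171 by the exact permutation test). Cd74 lies at chr18:60803848-60812652 on the plus strand.

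Ciita, the switch of the system, had low counts, 8 to 24 counts in WT and 9 to 32 in DKO libraries. Its normalized counts were 8.38, 16.35, 7.82 and 20.98 in WT and 12.61, 10.46, 28.08 and 33.44 in DKO libraries. DKO libraries 3 and 4 were above every WT library and DKO libraries 1 and 2 lay within the WT range. The log2 fold change of 0.65 had a standard error of 0.62 (adjusted p = 0.487, with p = 0.286 by the exact permutation test), so that it did not pass. The exons of Ciita (chr16:10480059-10528418, plus strand) overlap those of Dexi on the other strand by 329 bases, 3.45% of their length. Dexi read 96.2 ± 29.68 normalized counts in WT and 149.6 ± 22.37 in DKO (adjusted p = 0.164).

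On the scale of normalized counts per kb of exon, which allows levels to be compared between genes, H2-DMa (191.9) and H2-Ab1 (190.1) led the WT libraries. Their ranges overlapped and each was above the other in 2 of 4 libraries. H2-DMb1 (62.23), Cd74 (52.35) and H2-DMb2 (39.68) followed, each overlapping its neighbour, and H2-Eb1 (6.10), H2-Aa (2.81) and Ciita (1.40) were lowest. In DKO libraries H2-Ab1 stood alone at 354.8, without overlap with Cd74 (80.52), and H2-DMa (55.2) and H2-DMb1 (25.31) came after them. H2-Eb1 (6.63) and Ciita (2.22) were again low, H2-DMb2 (6.07) was now near them, and H2-Aa was at 0. From Cd74 to Ciita, the range of each gene over the DKO libraries overlapped that of the next.

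The ratio of H2-Ab1 to H2-DMa within a library, on the same scale, was 1.11, 0.58, 1.51 and 0.83 in WT and 16.85, 4.12, 7.16 and 6.84 in DKO libraries. The ratio of Cd74 to H2-DMa was 0.13 to 0.41 in WT and 1.15 to 3.31 in DKO libraries. The ratio of H2-Ab1 to Cd74 ranged from 2.55 to 11.52 in WT, where library 3 was alone above 2.73, and from 3.58 to 5.09 in DKO libraries. The proportions of H2-Ab1 and of Cd74 to H2-DMa thus did not overlap between genotypes, and that of H2-Ab1 to Cd74 overlapped through WT library 3 alone. H2-DMa did not overlap by itself, so the ratios to it restate its fall in part and are no separate evidence. The ratios were not tested.

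The other genes of the pathway were counted from lists chosen by role. Beside this list, the enhanceosome list and the list upstream of Ciita stand the shares over all genes tested. At an adjusted p under 0.05 these were 10.7% higher and 10.8% lower, and 6.19% and 2.43% by the call rule. Of 16 further class II genes, 13 were tested, and 2 were higher and 2 lower at an adjusted p under 0.05, none of them called beyond a log2 fold change of 1 (median -0.23, beside 0.03 for all genes). The endosomal cathepsin Ctsl (log2 fold change 0.62) and Ifi30, the thiol reductase that unfolds antigens (0.63), rose, and the protease Ctsd (-0.36) and Sppl2a, which clears the invariant chain stub (-0.40), fell. Ctss, the cathepsin of antigen-presenting cells, was at 214.7 to 271 normalized counts in WT and 25.64 to 155.7 in DKO libraries. Its groups did not overlap, and its log2 fold change of -1.44 had an adjusted p of 0.0662 by edgeR. H2-Ob, a partner in the H2-DM inhibitor H2-DO, had a log2 fold change of -2.76 (adjusted p = 0.194), and H2-Oa, its other chain, one of 0.00 (adjusted p = 0.997). H2-Eb2 was at 0 throughout.

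Transcripts for the factors that assemble on the X and Y boxes were detected in both genotypes. Of 13 genes for this enhanceosome and its cofactors, all tested, 2 were higher (Rfxap and Hdac2) and 3 lower (Nfya, Nfyc and Creb1), none called, with a median log2 fold change of 0.01. Rfx5 was at 316.7 ± 77.89 normalized counts in WT and 309.3 ± 46.13 in DKO (log2 fold change -0.03, adjusted p = 0.935). Rfxap, another RFX subunit, rose from 262.1 ± 30.32 to 424.8 ± 76.85 (0.70, adjusted p = 0.0379), and Rfxank read 1016 ± 51.7 and 1237 ± 268.2 (0.28, adjusted p = 0.206). Nfya, a subunit of the Y box factor NF-Y, fell from 3946 ± 86.67 to 2425 ± 286.8 (-0.70, adjusted p = 0.00278).

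Of 12 genes upstream of Ciita, 6 were lower and 1 higher at an adjusted p under 0.05 by edgeR, with a median of -0.63. The interferon-γ receptor chains Ifngr1 (-0.61) and Ifngr2 (-0.58), the kinase Jak1 (-0.65), Irf2 (-0.68) and Usf1 (-0.49), a factor of the interferon-driven Ciita promoter, all fell by less than the call rule asks. Irf8, a transcription factor of monocyte and dendritic cell precursors, fell from 3237 ± 336.1 to 938.7 ± 607 normalized counts and was called lower (-1.79, adjusted p = 0.0251). Socs1, a feedback inhibitor of interferon signalling, rose from 171.3 ± 5.2 to 458.2 ± 237.6 and was called higher (1.42, adjusted p = 0.0179). Irf1, which binds the Ciita promoter, was at 873.9 to 1100 in WT and 383.4 to 827.6 in DKO libraries, without overlap (-0.73, adjusted p = 0.0546). Spi1, the PU.1 factor of the myeloid Ciita promoter, was at 5354 ± 440.7 and 2974 ± 1477 (-0.85, adjusted p = 0.105). Within this list the receptor chains and Jak1 thus fell while Socs1 rose.

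**Figure D2:**
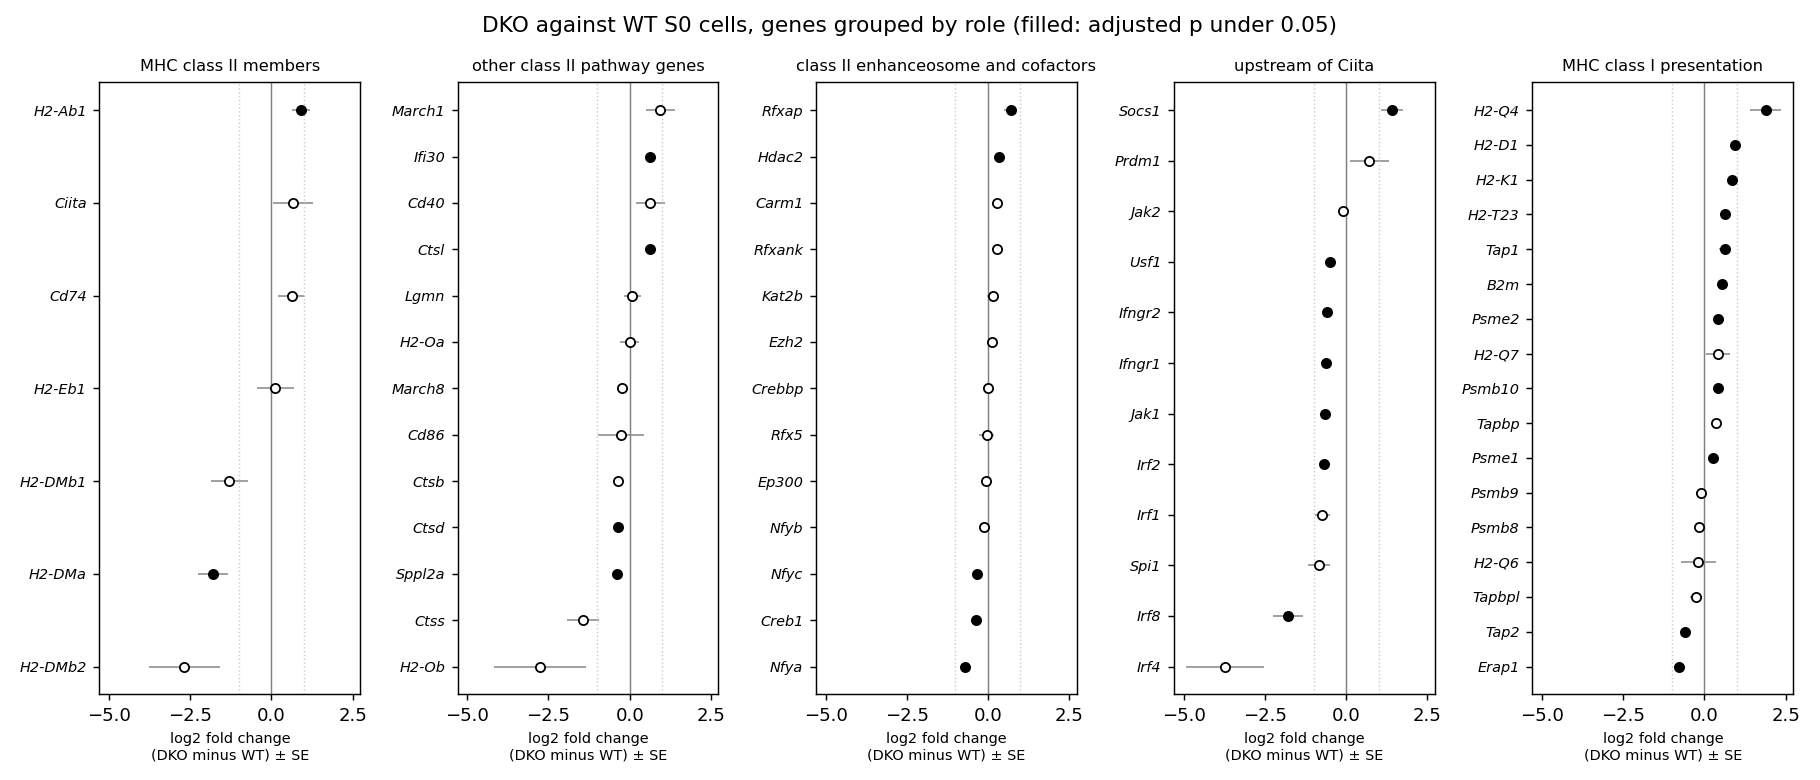
Log2 fold changes (x axis, DKO minus WT, ± SE from edgeR) of the tested class II members, other class II genes, enhanceosome genes, genes upstream of Ciita and class I genes, with filled circles for an adjusted p under 0.05 and dotted lines at a log2 fold change of 1 and -1. In the class I panel 9 of 17 genes are filled to the right of 0 and 2 to the left, whereas the class II panel holds 1 filled circle on each side, H2-Ab1 and H2-DMa.

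Interferon-γ is known to raise both class I and, through CIITA, class II genes, and these lists were set side by side. Of 18 class I presentation genes, 17 were tested, and 9 were higher and 2 lower at an adjusted p under 0.05, with a median log2 fold change of 0.41. The shares over all genes tested were 10.7% higher and 10.8% lower. The classical heavy chains H2-K1 (4940 ± 218.5 to 8854 ± 1042 normalized counts, 0.84, adjusted p = 0.00135) and H2-D1 (9516 ± 702 to 18350 ± 1547, 0.95, adjusted p = 0.000516) and the light chain B2m (17140 ± 649.1 to 24910 ± 1487, 0.54, adjusted p = 0.00265) rose in edgeR's test, without overlap between the groups. By the call rule 1 of the 17, the non-classical chain H2-Q4, was higher (1.89, adjusted p = 0.0239 by edgeR) and none was lower. The shares over all genes tested were 6.19% higher and 2.43% lower, so that the list did not stand out by this rule. The class I chains are near-identical copies in part, so that reads may be split between them. Of the peptide transporter chains, Tap1 rose (0.63, adjusted p = 0.0275) and Tap2 fell (-0.59, adjusted p = 0.0061), and the trimming peptidase Erap1 fell as well (-0.79, adjusted p = 0.00486). Nlrc5, the class I counterpart of Ciita, had too few counts for the test. Its normalized counts were 60.94, 40.68, 8.55 and 5.22 in the DKO libraries, and WT library 2 (16.35) was the only WT library above 0.

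Of 27 interferon-γ target genes, 22 were tested, and 9 were higher and 2 lower at an adjusted p under 0.05, with a median log2 fold change of 0.73. The shares over all genes tested were 10.7% higher and 10.8% lower. The 2 lower genes were Tap2 and Wars (-0.45, adjusted p = 0.0186 by edgeR), and 11 did not pass. By the call rule 6 were higher and none lower, beside 6.19% and 2.43% of all genes. These 6 were the guanylate-binding proteins Gbp3, Gbp6 and Gbp7, the GTPase Tgtp1, the chemokine Cxcl10 and Socs1. Tap1, Tap2, Psmb8, Psmb9, Psmb10 and Nlrc5 stand in the class I list as well, and Irf1 and Socs1 among the genes upstream of Ciita. Cxcl10 had the largest change of the 6, from 170.5 ± 68.18 to 1697 ± 706.9 normalized counts. Against these lists the class II members were divided. H2-Ab1 rose in the direction of class I, Cd74 and Ciita had positive log2 fold changes that did not pass, and H2-DMa fell. The difference between the class II members and either list was not tested.

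The cells in a sort differ in what they express, and in bulk libraries fewer cells of a type and less RNA per cell cannot be told apart. Markers of cell types that use class II genes were therefore read beside the H2-DM genes. Over all 17378 genes tested, 2.43% were called lower and 6.19% higher, the shares to set beside each list in this and the next paragraph. Of 18 macrophage markers, 16 were tested and 4 were called lower and none higher (Adgre1, Lyz2, Cx3cr1 and Itgam), and the summed level of the list was 6446 to 9527 normalized counts in WT and 1572 to 3357 in DKO libraries. The list was mixed, with 12 negative log2 fold changes and 4 positive ones (C1qa, C1qc, Mertk and Cd14) that did not pass. Of 15 monocyte and neutrophil markers, 10 were tested and 4 were called lower (Elane, Mpo, Ctsg and Csf3r) and none higher. Here 8 log2 fold changes were negative and 2 positive, S100a8 (1.45) and S100a9 (0.16), which did not pass. The summed level was 104400 to 135900 in WT and 5456 to 46580 in DKO libraries, with Ly6g at 0 throughout. Mpo, the peroxidase of granulocyte and monocyte precursors, made up most of this sum, with 108100 ± 12330 in WT and 23000 ± 13730 in DKO libraries. Of 15 dendritic cell markers, all tested, 5 were called lower (Flt3, Cd209a, Siglech, Ccr7 and Irf8) and 2 higher (Xcr1 and Bst2, an interferon-induced protein). Cd209a and Siglech were at 0 in all DKO libraries, and the summed level was 10510 to 11840 in WT and 12020 to 19250 in DKO libraries, where Bst2 led it.

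Of 15 B-lineage markers, 10 were tested and 2 were called lower (Ighm and Rag2), with sums of 2890 to 4009 and 626.2 to 1510. Ms4a1 was at 0 throughout, and Pax5, Blnk and Rag1 were at 0 in all DKO libraries but not in all WT libraries. In this list 8 log2 fold changes were negative and 2 positive, Ebf1 (0.94) and Cd22 (0.38), which did not pass. Of 15 lymphoid and innate lymphoid markers, 10 were tested, Ltb was called higher and Nkg7 lower, and the sums overlapped (7580 to 10510 and 6931 to 15940). Of 12 endothelial markers, all tested, 2 were called lower (Pecam1 and Sox18), with sums of 16330 to 17840 and 10290 to 16920. Their log2 fold changes were 10 negative and 2 positive. Of 12 progenitor markers, all tested, 5 were called lower (Kit, Cd34, Flt3, Hlf and Cd48), with sums of 48290 to 58640 and 24030 to 32660. None of 12 hepatoblast markers (sums of 706900 to 959300 and 214000 to 813700, lowest in DKO library 3) and none of 16 erythroid markers (63890 to 124300 and 47180 to 140800) was called. The part of these cell types in the fall of H2-DMa was not tested.

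The macrophage, monocyte, B-lineage, endothelial and progenitor sums were lowest in DKO library 1, where H2-DMa was lowest too and H2-DMb1 was not. The dendritic cell sum (19250 normalized counts, with Bst2 at 14550) and the lymphoid sum (15940) were highest in DKO library 1 among the DKO libraries. Within the sums that were lowest there, some markers went the other way. Among them were Mertk (393 normalized counts) and Meis1 (7950), both highest in library 1 among the DKO libraries. On the log2 CPM scale, relative to the WT mean, H2-DMa was at -3.67, -1.03, -2.17 and -1.45 in DKO libraries 1 to 4 and Irf8 at -3.84, -1.03, -2.25 and -1.34. H2-Ab1 was at 0.47, 1.08, 0.74 and 1.40 and Cd74 at 0.05, 1.16, 0.50 and 1.03, both lowest in DKO library 1 and neither below the WT mean in any DKO library.

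**Figure D3:**
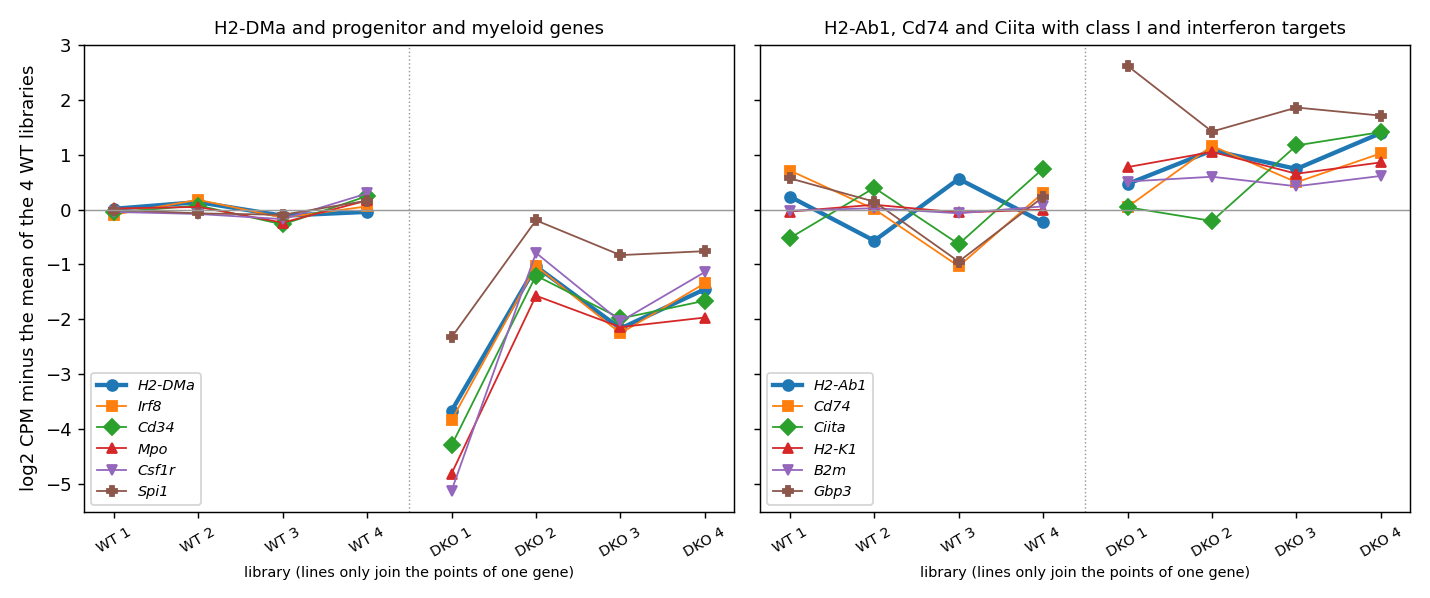
Log2 CPM of single genes relative to their WT mean (y axis) in each WT and DKO library (x axis). Left, H2-DMa with Irf8, Cd34, Mpo, Csf1r and Spi1, all below 0 in each DKO library and lowest in DKO library 1. These genes were picked from longer lists. In those lists, among the DKO libraries, Kit was lowest in library 4 and Meis1 highest in library 1. Right, H2-Ab1, Cd74 and Ciita with H2-K1, B2m and Gbp3, above 0 in the DKO libraries except for Ciita in DKO library 2.

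The likeness of patterns was measured as the root-mean-square difference in centred log2 CPM over the 8 libraries, among 13759 genes with a mean of at least 50 normalized counts. It is a description only, because the libraries of a genotype share their differences. The genes nearest to the mean of the 7 tested members were Abi3 (0.11), Smcr8 (0.19), Syne3, Cox7a1, Cmtm6, Gfod1, Notch1, Sdr42e1, Zfp212 and Ap1s3 (0.22). This mean joins members of opposite sign. The patterns of H2-DMa and H2-Ab1 alone were therefore compared as well, a step added after the values had been seen. Nearest to H2-DMa was Irf8 (0.09), followed by Nlrc3 (0.17), Serpinb1a, Sh2d5, Cd93, Ifi203, BC035044, Il16, Gpr171 and Il6ra (0.25), with Cd34 at rank 12, Mpo at 56, Cx3cr1 at 109, Csf1r at 125, Flt3 at 153, Spi1 at 158 and Ctss at 240. Beyond the nearest genes, ranks were read for these picked genes only, not for all markers of the lists. Nearest to H2-Ab1 were Snf8 (0.22), 1700096K18Rik, Chchd10, Syngr1, Cpox, Eif4ebp1, Asns, Stamos, Higd1a and Gm26762 (0.25), and Irf8 was at rank 13219.

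Of the 8 members, 6 lie in 1 cluster on chromosome 17, whose 15 genes from H2-Oa to H2-Ea-ps span 252.3 kb. This set was chosen by position after the values of the members were known. Of 12 genes tested, 2 were higher (Tap1 and H2-Ab1) and 2 lower (H2-DMa and Tap2) at an adjusted p under 0.05 by edgeR, beside 10.7% and 10.8% of all genes tested. Genes of both directions lay near each other, as Tap1 and Tap2 did with Psmb8 between them, and Brd2, between H2-Oa and H2-DMa, had a log2 fold change of -0.10 (adjusted p = 0.364). Along the cluster the 3 H2-DM genes stood side by side with negative log2 fold changes, and H2-Ob, which lies nearer to H2-Ab1, had a negative one as well that did not pass.

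**Figure D4:**
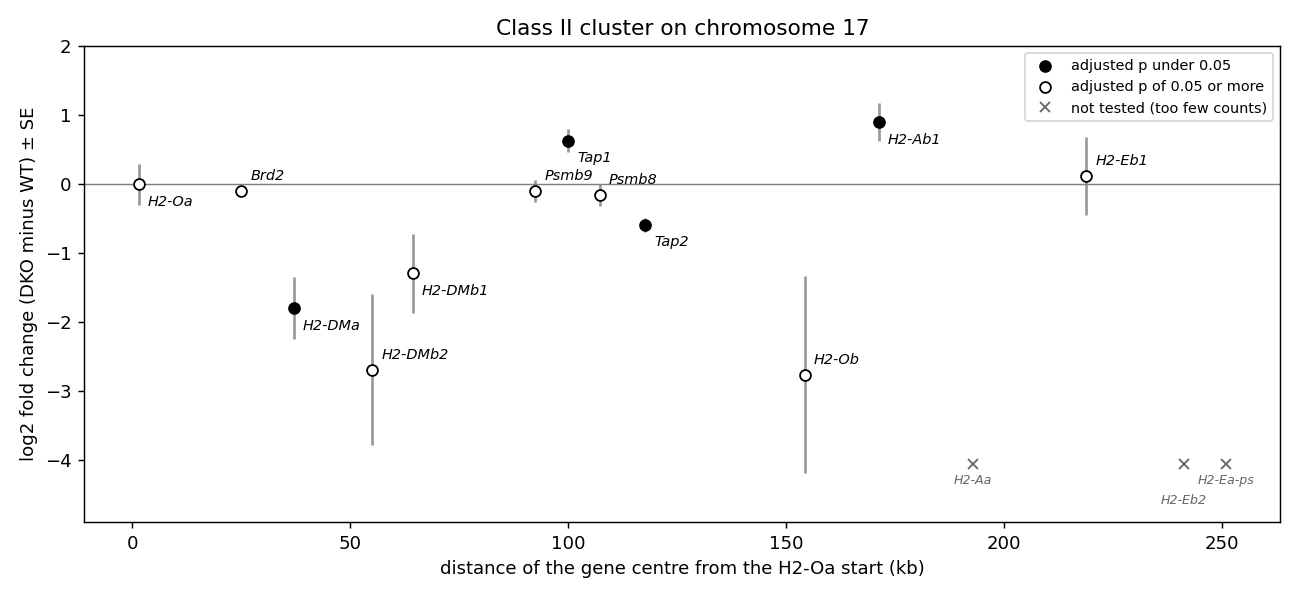
Log2 fold change (y axis, DKO minus WT, ± SE from edgeR) of the genes of the class II cluster against the distance of their centre from the start of H2-Oa in kb (x axis), filled where the adjusted p was under 0.05. Crosses at the foot mark genes with too few counts for the test and carry no value. H2-DMa, H2-DMb2 and H2-DMb1 lie together between -2.69 and -1.29, and H2-Ab1 is at 0.90.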

How the data were processed

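The deposited table holds raw read counts per gene for the 8 libraries, which the authors made from low-input cDNA libraries by trimming with fastp 0.21.0, aligning to mm10 with HISAT2 2.2.1, discarding alignments with a mapping quality under 20 and counting with StringTie 1.3.3b and its prepDE script. The strand setting of the counting was not given in the sources used here. No replicates were pooled in the table.

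Groups and replicate numbers came from the sample labels. Gene identifiers were paired with symbols for 52403 of 52636 genes. Genes were filtered with filterByExpr, which left 17378, scaled by TMM and compared with edgeR 4.0.16 (R 4.3.3) by the quasi-likelihood test in its robust form, and p-values were adjusted by Benjamini and Hochberg's method over all genes tested. The study's thresholds served for calls, a log2 fold change beyond 1 with an adjusted p under 0.05. Normalized counts are counts divided by TMM-scaled library size and set to the mean library. Levels per kb used the summed exon length of GENCODE M21 on GRCm38. The log2 CPM used a prior count of 0.5. Single members were also compared on the log2 CPM scale by an exact, two-sided permutation test with SciPy 1.17.1. On simulated data for this comparison, the test called 186 of 200 genes (93%) changed 4-fold and 12 unchanged genes, among 17161. Whether this share holds at the levels and spread of the members was not tested. In the libraries themselves, H2-DMa was 3.48-fold lower in DKO and passed edgeR's test, and H2-DMb2 was 6.54-fold lower and did not. Replicate libraries differed by more than sampling noise, and each counted once. Counting error alone set the floor of 3 counts given for values of 0.

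Alternatives were DESeq2 1.42.0, other scalings and filters, a replicate block, leaving out each library and, added after seeing the data, using only libraries with Y-linked transcripts (4 WT and DKO 3). The members, lists and tests were chosen with earlier results of these data known, and some genes of the lists were left out of them and are not reported here. Values are given for all members, for genes called in the pathway lists, for Rfx5, Rfxap, Rfxank, Irf1, Nlrc5, B2m, H2-K1, H2-D1, Ctss and Spi1, for up to 4 leading genes of a marker list, and for the 10 genes nearest in pattern. Other genes that passed at an adjusted p under 0.05 were named after their values were seen. So were H2-Oa, H2-Ob, Brd2, Dexi, Mertk, Meis1, C1qa, C1qc, Cd14, S100a8, S100a9, Ebf1 and Cd22. Motif matches came from RefSeq promoter windows of 250 bases before to 50 after a start, and H2-DMb1 and H2-DMb2 windows were aligned with Biopython 1.88.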

Additional observations from a re-analysis of the deposited data

Results flagged for a closer look

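In 39 groups of 4 libraries, from 20 genes, the highest or lowest library was compared with the others by Dixon's criterion, which chance exceeds in about 1 in 20 groups, and 4 groups exceeded it. H2-Eb1 was at 18.6 normalized counts in DKO replicate 2, apart from 10.51 to 11.49 in the other DKO libraries, a difference of a few counts. Rfxank was at 1637 normalized counts in DKO replicate 1 and at 1073 to 1145 in the others. Irf1 was at 873.9 normalized counts in WT replicate 3, below 1079 to 1100 in the other WT libraries. Nlrc5 was at 16.35 normalized counts in WT replicate 2 and at 0 in the other WT libraries.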

How the results depend on the processing

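The 1076 genes called higher became 1658 with DESeq2, 613 with a replicate block, 590 with only the Y-linked-transcript libraries and 1867 without a fold limit, and 566 to 1148 with 1 library left out. The 423 genes called lower became 1143 with only those libraries and 1878 without a fold limit, and 243 to 521 with 1 library left out. Both counts dropped by over 1.5 times without WT library 1 (566 and 258), 2 (650 and 260) or 4 (633 and 243). No member was called higher, but 1 (H2-Ab1) was with upper-quartile scaling or without a fold limit, and 0 to 1 with 1 library left out (1 without WT library 3 or DKO library 1). Of the members 1, H2-DMa, was called lower, against 2 members by DESeq2, 3 in only the Y-linked-transcript libraries, and 0 to 2 with 1 library left out (0 without WT library 1, 2 or 4, and 2 without DKO library 1). H2-Ab1 (0.90) had a log2 fold change of 0.88 without a low-count filter (adjusted p = 0.0639), 0.92 with a replicate block (0.108) and 0.66 with only the Y-linked-transcript libraries, and 0.72 to 1.11 with 1 library left out. H2-Eb1 (0.12) was reversed at -0.13 with only the Y-linked-transcript libraries, and ranged from -0.11 to 0.43 with 1 library left out, below 0 without WT library 4 (-0.10) or DKO library 2 (-0.11). H2-DMa ranged from -2.18 to -1.48 with 1 library left out and H2-DMb1 from -1.79 to -0.98. Under the Y-linked restriction H2-DMb1 was at -2.43 and H2-DMb2 at -9.19, fitted against a single library at 0 and so no bound. H2-DMb2 passed with DESeq2 at -2.72 (adjusted p = 0.0482). In the Y-linked restriction the lone DKO library was assumed to vary like the WT libraries, although DKO libraries varied more for the H2-DM genes, so its calls and p-values carry no weight. Fits that leave libraries out hold fewer samples by construction, and for the other settings the cause was not tested. Cd74 and Ciita kept their sign and did not pass in 17 and 16 alternatives. Upper-quartile scaling and no filter moved the median of all genes to 0.14 and 0.13, and the direction of each tested member stayed. The replicate numbers did not pair the libraries (correlations of deviations from -0.07 to 0.04), and the block changed no other member's call. H2-Aa, H2-Eb1 and Ciita had at most 32 counts in any library, and the part of depth in their results was not tested.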
